A study of Mus musculus with 6 samples.

Results

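The melanocyte lineage genes described here are 10 genes of the pigment cell branch of the neural crest, taken by symbol from the deposited table: Kit, Ednrb, Mitf, Tyr, Tyrp1, Dct, Pmel, Mlana, Slc45a2 and Oca2. All 10 are among the 21006 symbols of the table. RNA was read in 6 libraries of TdTomato-positive cells sorted from mouse branchial arches, the embryonic swellings that build the jaws and throat, at E11.5 of gestation. The 3 DKO (double knockout) libraries were Ehmt1f/f and Ehmt2f/f, and the 3 control libraries were Ehmt1+/+ and Ehmt2+/+. Both groups carried Wnt1-cre and a single Rosa26 TdTomato reporter allele, so the reporter and the recombinase were shared and the floxed alleles were not. Wnt1-cre acts in the dorsal neural tube and in the crest that leaves it, so pigment cell precursors, glia, neurons and arch mesenchyme of crest origin are all expected to be labelled. Replicates are labelled as biological, but whether each came from 1 embryo or from pooled embryos is not given, so the p-values measure the spread between these libraries.

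Melanocytes arise from crest cells that switch on the transcription factor gene Mitf and depend on signals through the receptors Kit and Ednrb. Mitf protein binds short sequences called M-boxes in the promoters of the pigment enzyme genes Tyr, Tyrp1 and Dct. Tyr encodes tyrosinase, the rate-limiting enzyme of melanin synthesis. Tyrp1 and Dct encode its relatives, Pmel the fibrils on which melanin is laid down, Mlana a melanosome protein, and Slc45a2 and Oca2 membrane transporters of the melanosome. Ehmt1 and Ehmt2 encode GLP and G9a, the paired enzymes that place mono- and dimethyl marks on lysine 9 of histone H3, a mark of silenced genes.

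The stretches before the start sites of the 3 enzyme genes are shown because all 3 hold an M-box core, while Tyr was called, Dct was not and Tyrp1 was too scarce to test. Each is the 250 bases before a RefSeq start site (GRCm38.p6, the mm10 assembly), and capitals mark TCATGTG on either strand (CACATGA where it lies on the other strand).
Tyr, chr7:87493513-87493762, minus strand: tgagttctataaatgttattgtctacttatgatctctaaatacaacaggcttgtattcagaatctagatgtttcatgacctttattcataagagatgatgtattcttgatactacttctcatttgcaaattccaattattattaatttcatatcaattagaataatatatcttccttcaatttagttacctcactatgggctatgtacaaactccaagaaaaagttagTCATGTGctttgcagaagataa
Tyrp1, chr4:80833963-80834212, plus strand: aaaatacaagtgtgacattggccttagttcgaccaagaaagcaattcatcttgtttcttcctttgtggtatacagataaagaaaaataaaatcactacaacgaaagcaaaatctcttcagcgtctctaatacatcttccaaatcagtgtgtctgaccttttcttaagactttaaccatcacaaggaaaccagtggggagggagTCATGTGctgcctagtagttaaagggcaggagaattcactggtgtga
Dct, chr14:118052247-118052496, minus strand: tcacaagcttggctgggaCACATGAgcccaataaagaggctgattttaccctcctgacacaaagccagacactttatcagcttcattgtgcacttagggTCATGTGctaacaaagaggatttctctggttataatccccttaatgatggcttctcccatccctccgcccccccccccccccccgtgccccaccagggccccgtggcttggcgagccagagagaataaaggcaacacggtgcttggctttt
Promoter windows of 300 bases (250 before and 50 after a start) were found for 7 of the 10 genes: Kit, Ednrb, Mitf, Tyr, Tyrp1, Dct and Oca2. TCATGTG, searched on both strands, lay 22 to 16 bases before the start in Tyr and 47 to 41 bases before it in Tyrp1. In Dct it lay 151 to 145 bases before the start, and again on the other strand 232 to 226 bases before it. It was in no window of Kit, Ednrb, Mitf or Oca2. Of all 32851 RefSeq windows, 3.77% held it. The Tyr core with 2 bases on either side, AGTCATGTGCT, was in the windows of 3 table genes, Tyr, Tyrp1 and the complement gene C1qb, and in 0.0213% of all windows. The Tyr window held 0 CpG pairs, as did 5.43% of all windows, and the Tyrp1 and Dct windows held 3 and 5. Among the 7 genes with windows, the CpG-richest windows were in Mitf (22), Kit (21) and Ednrb (15). Mitf had several start windows, which held 22, 5 and 8 CpG pairs in order along the chromosome, so 22 does not stand for every Mitf start. A match to these letters describes the sequence and does not show that a factor binds there.

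Total counts ran from 23414466 to 44538260 per library, so 1 count was worth 0.0224 to 0.0449 CPM (counts scaled to a common library size, here with TMM, a correction for library composition). Here and below, ± is the SD over the 3 libraries of a group. The targeted Ehmt2 measured 128 ± 11.3 CPM in the DKO against 355 ± 7.13 CPM, and Ehmt1 148 ± 18.2 against 259 ± 8.92 CPM, without overlap for either. The cell identity of the sort was checked on 12 markers of arch mesenchyme, which summed to 1835 to 2510 CPM in the DKO against 2256 to 2754 CPM in the controls. The homeobox gene Prrx1 had the highest mean level of this list, at 435 ± 37.0 and 538 ± 66.0 CPM. Melanocyte genes were a small part of this RNA, and their summed level was 93.2, 106.0 and 129 CPM in the DKO against 131.4, 115.4 and 118.4 CPM in the controls, so the groups overlapped. In bulk RNA, a difference in the number of pigment precursors and a difference in RNA per precursor cannot be told apart.

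Of the 10 genes, 7 had enough counts to be tested, and only Tyr was called: it rose in the DKO. Calls are those of edgeR's quasi-likelihood test with Benjamini-Hochberg adjusted p under 0.05. By that rule 1 of 7 rose and 0 fell, beside 3.01% of all tested genes called, 2.19% of the 14555 called higher and 0.818% called lower. At an unadjusted p below 0.05 the edgeR counts were 2 higher and 0 lower, and DESeq2 and limma-voom each called 1 higher and 0 lower. Over all 14555 tested genes DESeq2 called 624 higher and 482 lower, and limma-voom 286 and 104. An unadjusted edgeR p of 0.0501 ranked 3052 among the 14555, so unadjusted counts have a large background. These values are the background for the counts of every list below. The median log2 fold change of the 7 was -0.10, beside -0.01 for all tested genes. Groups did not overlap for 2 of the 7, Tyr and Mitf, both with the DKO higher, where 14.5% of all tested genes separated in that direction. The 3 remaining genes, Tyrp1, Mlana and Oca2, were under the count filter and are given as counts.

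**Figure D1:**
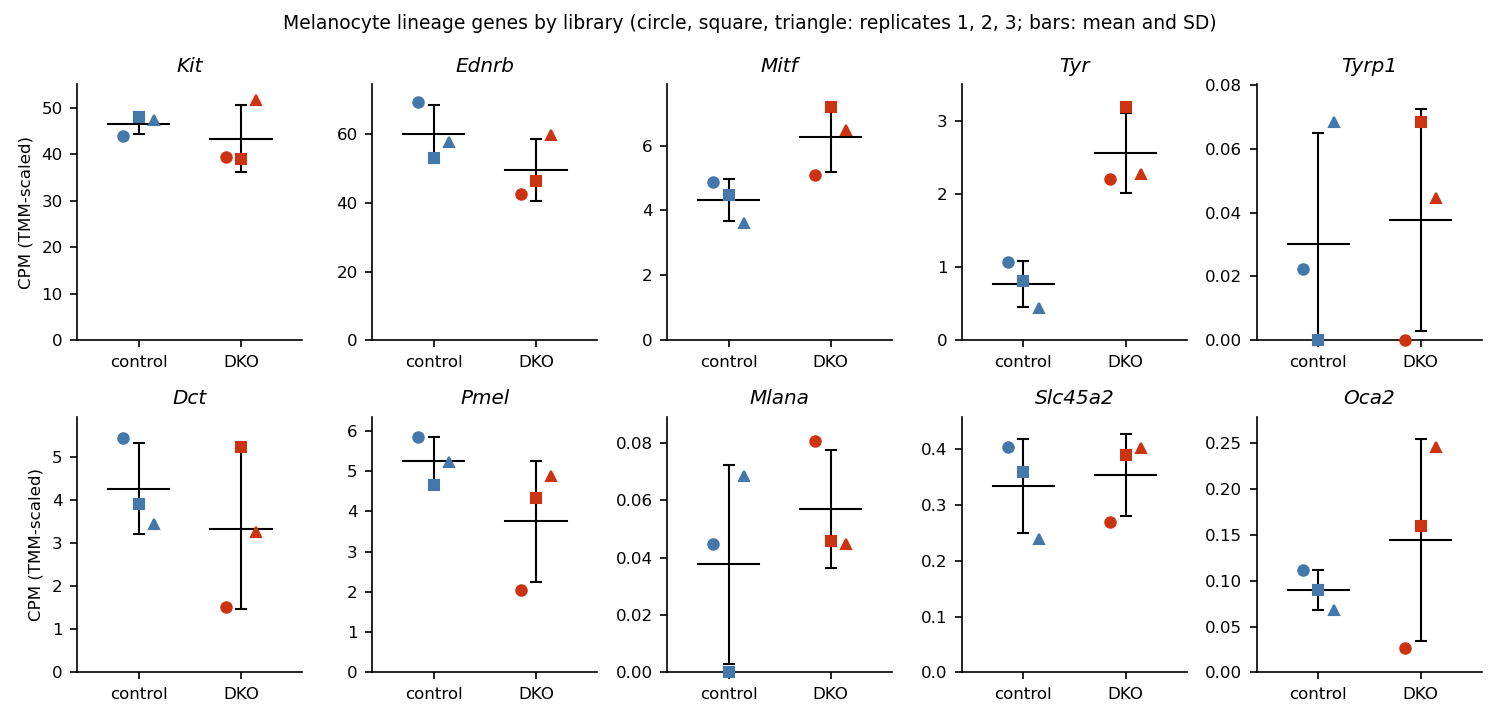
TMM-scaled CPM of each of the 10 genes (vertical axes from 0, a scale for each gene) in 3 control (blue) and 3 DKO (red) libraries, with mean and SD; circle, square and triangle are replicates 1, 2 and 3. For Tyr the DKO libraries sit between 2.21 and 3.20 CPM, all above the controls at 0.444 to 1.07 CPM, and for Dct and Pmel DKO replicate 1 is the lowest library.

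Per length, the receptors stood highest and the late pigment genes near the detection limit. In control libraries the levels, in CPM per kilobase of merged exon (GENCODE M21), were 14.1 ± 1.99 for Ednrb, 5.22 ± 0.24 for Kit and 2.29 ± 0.261 for Pmel. Dct at 0.725 ± 0.178 and Mitf at 0.699 ± 0.103 came next and did not differ beyond their spread. Slc45a2 at 0.112 ± 0.0284 and Tyr at 0.109 ± 0.0444 were likewise not separated. Mlana (0.0357 ± 0.0329), Oca2 (0.0227 ± 0.00549) and Tyrp1 (0.0107 ± 0.0123) were the lowest, and their spreads overlapped. In the DKO the order was the same at the top, and Tyr, at 0.361 ± 0.0776 CPM per kilobase, stood above Slc45a2 at 0.119 ± 0.0245 and within the spread of Dct at 0.566 ± 0.316.

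Mitf (chromosome 6, 97807002 to 98021360) is the master regulator of the lineage. DKO libraries 1 to 3 held 5.09, 7.20 and 6.48 CPM of it, and control libraries 1 to 3 held 4.88, 4.49 and 3.62 CPM. Every DKO library was above every control library, but the closest pair, DKO replicate 1 and control replicate 1, differed little. The log2 fold change was 0.53 (SE 0.20, 95% interval 0.08 to 0.98), with an unadjusted p of 0.0268 and an edgeR adjusted p of 0.181, so Mitf was not called. RefSeq lists 3 start windows for Mitf, and counts per gene do not tell the melanocyte form from the others.

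The receptors were the most abundant of the 10 genes and neither was called. Kit (chromosome 5, 75574987 to 75656722), the receptor for stem cell factor, measured 39.4, 39.1 and 51.7 CPM in the DKO and 44.1, 48.0 and 47.5 CPM in the controls. DKO replicate 3 was the highest library and the other DKO libraries the lowest. The log2 fold change was -0.10 (SE 0.12, 95% interval -0.37 to 0.17, adjusted p = 0.674 by edgeR). Ednrb (chromosome 14, 103814615 to 103844508), the endothelin receptor that melanoblasts and enteric precursors need, measured 42.5, 46.3 and 59.7 CPM in the DKO and 69.5, 53.1 and 57.7 CPM in the controls. The groups overlapped because DKO replicate 3 was above control replicates 2 and 3. The log2 fold change was -0.28 (SE 0.15, 95% interval -0.62 to 0.06, adjusted p = 0.313 by edgeR). Kit is also a gene of blood and mast cell precursors and Ednrb of glia, so neither level belongs to pigment precursors alone.

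Tyr (chromosome 7, 87424771 to 87493512) had 82, 140 and 102 counts across the DKO libraries 1 to 3, against 48, 18 and 13 across the controls. These are 2.21, 3.20 and 2.28 CPM against 1.07, 0.808 and 0.444 CPM, and the lowest DKO library was above the highest control library. The mean rose from 0.775 ± 0.316 to 2.56 ± 0.552 CPM, a log2 fold change of 1.70 (SE 0.34, 95% interval 0.92 to 2.48), or 3.25-fold, with an edgeR adjusted p of 0.0392. Its p-value ranked 361 among the 438 called genes and its fold change 148 among the 319 genes called higher. The call ended when any library except DKO replicate 3 was left out (adjusted p = 0.107 and 0.0966 without DKO replicates 1 and 2, and 0.063, 0.138 and 0.092 without control replicates 1, 2 and 3), while the log2 fold change stayed between 1.42 and 2.06.

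Neither of the other enzyme genes was called. Dct (chromosome 14, 118012790 to 118052246), which encodes dopachrome tautomerase and is an early melanoblast marker, measured 1.51, 5.23 and 3.26 CPM in the DKO and 5.46, 3.90 and 3.45 CPM in the controls. DKO replicate 1 was the lowest of the 6 and DKO replicate 2 the second highest, so the groups overlapped. The log2 fold change was -0.36 (SE 0.41, 95% interval -1.32 to 0.60, adjusted p = 0.665 by edgeR), and it was -0.02 without DKO replicate 1 and -0.84 without DKO replicate 2. Neither a modest rise nor a fall of more than 2-fold lies outside that interval. Tyrp1 (chromosome 4, 80834123 to 80851736) had 0, 3 and 2 counts in the DKO and 1, 0 and 2 in the controls, a ratio of 1.28 with an exact 95% counting interval of 0.248 to 8.22. No difference in Tyrp1 was detectable at this depth. Counting intervals cover counting error only.

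Pmel (chromosome 10, 128695888 to 128720238), the fibril protein gene, measured 2.05, 4.34 and 4.87 CPM in the DKO and 5.86, 4.67 and 5.23 CPM in the controls. DKO replicate 1 was again the lowest library, and DKO replicate 3 lay above control replicate 2. The log2 fold change was -0.48 (SE 0.30, 95% interval -1.18 to 0.21, adjusted p = 0.395 by edgeR), and it was -0.19 without DKO replicate 1. Exons of Pmel share 34 bases with Cdk2 and 105 bases with Dgka on the opposite strand in GENCODE M21, and whether reads were counted by strand is not given in the sources used here. Cdk2 stood at 116 ± 4.34 CPM in the DKO against 126 ± 7.27 CPM in the controls, and Dgka at 11.1 ± 2.26 against 8.34 ± 1.11 CPM (log2 fold changes -0.12 and 0.41, neither called). The part of either in the level of Pmel was not tested.

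The transporter and melanosome genes were scarce. Slc45a2 (chromosome 15, 11000721 to 11029233) measured 0.269, 0.388 and 0.402 CPM in the DKO and 0.403, 0.359 and 0.239 CPM in the controls, with groups that overlapped. Its log2 fold change was 0.07 (SE 0.36, 95% interval -0.76 to 0.90, adjusted p = 0.935 by edgeR). Oca2 (chromosome 7, 56239593 to 56536518) had 1, 7 and 11 counts in the DKO and 5, 2 and 2 in the controls, a DKO to control ratio of 1.62 (counting interval 0.697 to 4.06). Mlana (chromosome 19, 29697541 to 29708447) had 3, 2 and 2 counts against 2, 0 and 2, a ratio of 1.34 (0.341 to 6.25). For both genes the libraries of the groups overlapped and the interval included equal levels.

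**Figure D2:**
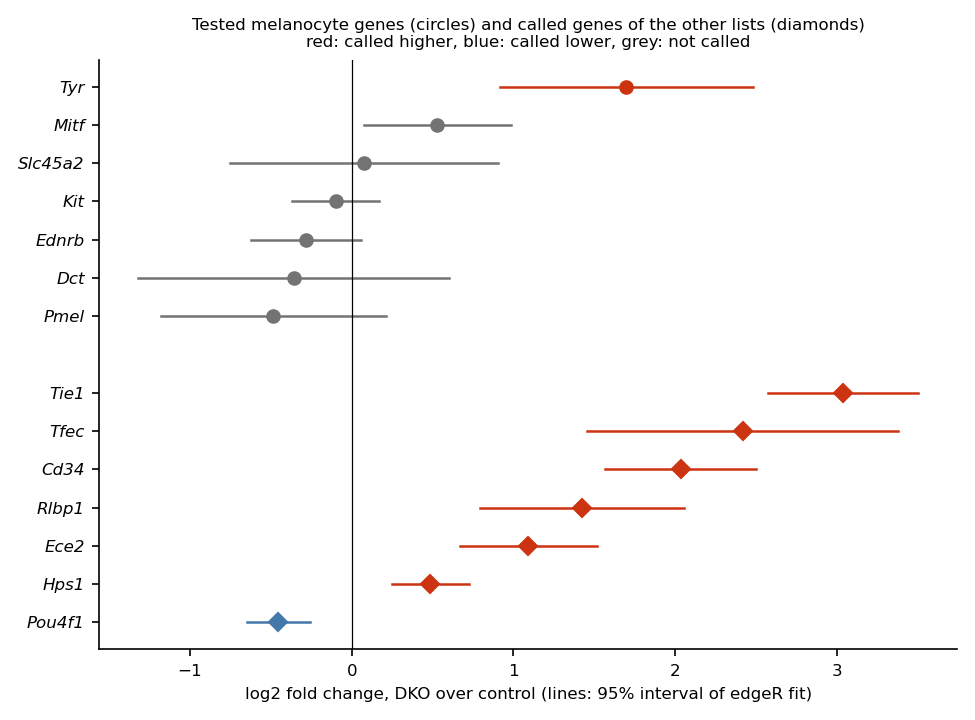
Log2 fold change of DKO over control (horizontal axis) with its 95% interval for the 7 tested melanocyte genes (circles) and for the genes called in the other lists (diamonds). Of the melanocyte genes Tyr, at 1.70, is the one called; the Mitf interval starts at 0.08 and the intervals of the other 5 include 0.

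The Tyr counts can also be set against other genes of the same library, which leaves out any scaling. These ratios were chosen after the Tyr values were seen and all share the Tyr counts, so they describe the same rise and add no test to it. Over DKO libraries 1 to 3, Tyr counts were 146%, 61.1% and 69.9% of Dct counts, against 19.7%, 20.7% and 12.9% in the controls. Against Pmel they were 108%, 73.7% and 46.8%, and 18.3%, 17.3% and 8.50% in the controls. Against Mitf they were 43.4%, 44.4% and 35.2%, and 22.0%, 18.0% and 12.3% in the controls. No DKO library overlapped a control library in any of the 7 ratios, which also used Kit, Ednrb, Slc45a2 and the crest, glia and melanoblast factor gene Sox10. The ratio to Dct was highest in DKO replicate 1, where Dct itself was lowest.

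**Figure D3:**
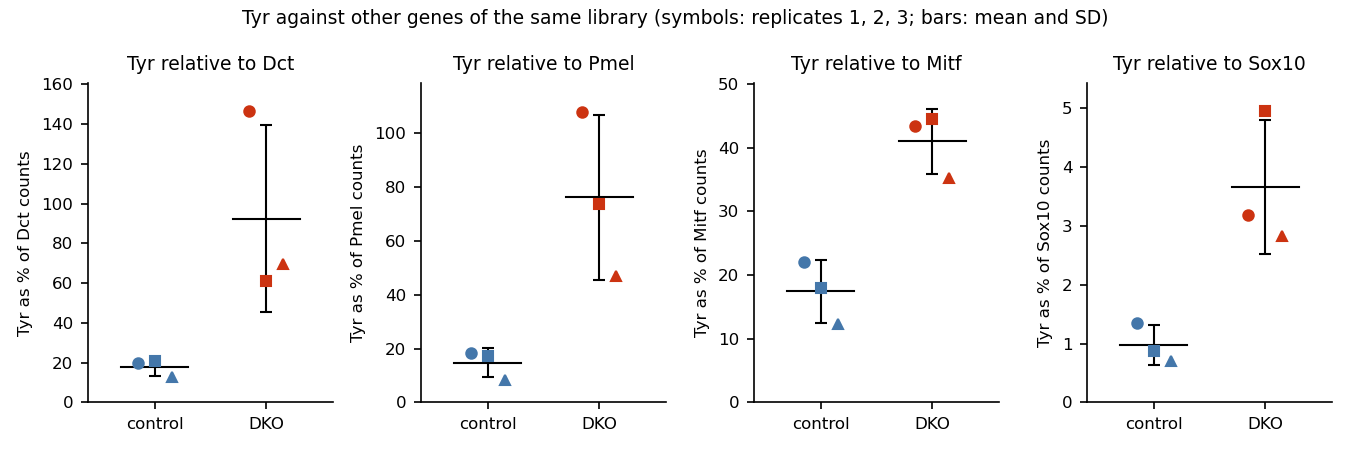
Tyr counts as a percentage of the Dct, Pmel, Mitf and Sox10 counts of the same library (vertical axes from 0) in control (blue) and DKO (red) libraries, with mean and SD; symbols are replicates 1, 2 and 3. In each panel the 3 DKO libraries lie above the 3 controls, from 61.1% to 146% against 12.9% to 20.7% for Dct.

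The genes beside Tyr on chromosome 7 were not called. Of 15 table genes within 1 Mb of Tyr, 4 were tested, and 0 were called by edgeR (1 higher and 0 lower at an unadjusted p below 0.05, 0 by DESeq2 and limma-voom). The oxidase gene Nox4, 26.1 kb away, stood at 9.41 ± 0.421 CPM in the DKO against 7.46 ± 0.555 CPM in the controls (log2 fold change 0.33, SE 0.13, adjusted p = 0.201 by edgeR), and its groups did not overlap. The log2 fold changes were 0.49 (SE 0.51) for the glutamate receptor gene Grm5, 0.18 (SE 0.15) for the protease gene Ctsc and 0.43 (SE 0.30) for Rab38, which encodes a GTPase of melanosome transport. Around the other 9 genes, 1 neighbour was called in the same window, the sensory neuron factor gene Pou4f1 near Ednrb, which fell. It was 1 of 8 tested genes within 1 Mb of Ednrb. Around Pmel 48 neighbours were tested, around Mlana 19, around Kit and Slc45a2 11 each and around Dct 9, with 0 called. Around Oca2 8 were tested, around Mitf 7 and around Tyrp1 2, also with 0 called. Over all tested genes 0.818% were called lower, and a single call over all these windows is near that share. None of the 10 genes lies on chromosome 2 or 17, which hold Ehmt1 and Ehmt2.

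Among the transcription factors that specify or sustain melanoblasts, the Mitf relative Tfec rose and no other was called. Of 16 tested genes, 1 rose and 0 fell by edgeR (1 and 2 at an unadjusted p below 0.05, 1 and 1 by DESeq2, 1 and 0 by limma-voom), with a median log2 fold change of -0.21. Over all tested genes, edgeR called 2.19% higher and 0.818% lower. Of the 16, 12 had negative log2 fold changes, and the summed level was 1058 to 1151 CPM in the DKO against 1209 to 1299 CPM in the controls. In every library Creb1 alone, at 139 ± 15.6 and 171 ± 7.18 CPM, exceeded the summed level of the 10 melanocyte genes. The summed level of the regulators therefore need not belong to pigment precursors. Groups did not overlap for 1 gene with the DKO higher and 3 with it lower, where 14.5% and 12.7% of all tested genes separated. Tfec encodes a factor of the same family as Mitf that binds the same kind of site. It measured 1.29, 1.48 and 1.27 CPM in the DKO and 0.112, 0.269 and 0.41 CPM in the controls, a log2 fold change of 2.42 (SE 0.42, adjusted p = 0.0234 by edgeR). The groups were far apart, and the call ended without DKO replicate 1 or 2 or control replicate 1 or 2 (adjusted p between 0.0517 and 0.097). Sox10, which acts upstream of Mitf, stood at 71.5 ± 8.26 and 78.1 ± 14.5 CPM (log2 fold change -0.13, SE 0.14, adjusted p = 0.648 by edgeR). Creb1, the cAMP-responsive factor gene and the most abundant of the list, had a log2 fold change of -0.30 (SE 0.09, adjusted p = 0.126 by edgeR), and was called lower without DKO replicate 3 (adjusted p = 0.0227). Tfap2a was lower in every DKO library, at 38.1 ± 5.03 against 56.8 ± 8.19 CPM (log2 fold change -0.57, SE 0.13, adjusted p = 0.0599 by edgeR), and was not called.

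Among 14 tested ligand and receptor genes of pigment cell signalling, 1 rose and 0 fell by edgeR, beside 2.19% and 0.818% of all tested genes. The counts were 3 and 2 at an unadjusted p below 0.05, 1 and 1 by DESeq2 and 1 and 0 by limma-voom, and the median log2 fold change was -0.01. Ece2, which encodes an endothelin-converting enzyme, measured 10.5, 13.1 and 9.99 CPM in the DKO and 6.37, 4.71 and 4.58 CPM in the controls, a log2 fold change of 1.09 (SE 0.19, adjusted p = 0.0213 by edgeR). The groups did not overlap, and the call ended without DKO replicate 1 or 2 or control replicate 2 or 3 (adjusted p between 0.0566 and 0.0944). The related and more abundant Ece1 was lower in every DKO library, at 66.4 ± 4.17 against 78.8 ± 4.36 CPM, and was not called (log2 fold change -0.25, SE 0.08, adjusted p = 0.134 by edgeR). Ednra, the other endothelin receptor gene and the most abundant of the list, had a log2 fold change of 0.11 (SE 0.12, adjusted p = 0.626 by edgeR). Asip, a pigment-switching ligand gene on this list, has no entry under that symbol in the deposited counts, and Edn2 had 0 counts.

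Of 34 tested genes of melanosome building and transport, 1 rose and 0 fell by edgeR, beside 2.19% and 0.818% of all tested genes. The counts were 5 and 5 at an unadjusted p below 0.05, 2 and 2 by DESeq2 and 0 and 0 by limma-voom, and the median log2 fold change was 0.10. Hps1, which encodes a subunit of a complex that sorts cargo to melanosomes and related organelles in many cell types, measured 37.2, 32.1 and 39.2 CPM in the DKO and 24.8, 24.7 and 28.0 CPM in the controls. Its log2 fold change was 0.49 (SE 0.10, adjusted p = 0.049 by edgeR). The call lay at the threshold and ended with RLE scaling (adjusted p = 0.0505), with limma-voom (0.062) and with at least 1 CPM asked in 3 libraries (0.0507). It also ended without DKO replicate 1 or 3 or any 1 control library (adjusted p up to 0.198). Ap3d1, the adaptor subunit gene with the highest level, had a log2 fold change of 0.02 (SE 0.07, adjusted p = 0.914 by edgeR). Groups did not overlap for 7 genes with the DKO higher and 7 with it lower, where 14.5% and 12.7% of all tested genes separated. Among the lower ones were Gpnmb, at 1.12 ± 0.582 against 2.40 ± 0.134 CPM, and Mreg, at 26.6 ± 2.57 against 36.8 ± 3.03 CPM. Neither was called (log2 fold changes -1.09, SE 0.40, and -0.47, SE 0.10, adjusted p = 0.172 and 0.0546 by edgeR). The melanosome genes Gpr143 and Slc24a5, which pigment cells use, were under the filter: Gpr143 had 2, 2 and 4 counts in the DKO and 2, 1 and 1 in the controls, and Slc24a5 2, 9 and 13 against 4, 2 and 2.

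Markers of other cells that could hold Tyr or Mitf transcripts were read in the same libraries. The retinal pigment epithelium, a pigmented layer of the eye that is not of crest origin, uses Tyr, Dct, Pmel and Mitf too. Of its 9 markers 7 were tested, and 1 rose and 0 fell by edgeR, beside 2.19% and 0.818% of all tested genes. The counts were 1 and 1 at an unadjusted p below 0.05, 1 and 1 by DESeq2 and 1 and 0 by limma-voom. The summed level of the retinal markers was 19.0 to 27.8 CPM in the DKO against 26.2 to 31.5 CPM in the controls. Its defining enzyme gene Rpe65 had 1, 1 and 0 counts in the DKO libraries and 0 in every control library, and Lrat, also under the filter, 7, 6 and 14 against 4, 2 and 5. Rlbp1, which encodes a retinaldehyde-binding protein, measured 2.21, 1.42 and 1.94 CPM in the DKO and 0.716, 0.583 and 0.752 CPM in the controls (log2 fold change 1.42, SE 0.27, adjusted p = 0.0338 by edgeR). That call ended without DKO replicate 1 or any 1 control library (adjusted p between 0.095 and 0.155). Ttr, the most abundant of this list, stood at 7.71 ± 1.55 against 15.4 ± 4.11 CPM (adjusted p = 0.0627 by edgeR), and DESeq2 called it lower (adjusted p = 0.00189).

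Glial markers, shared by the Schwann cell precursors from which many melanocytes descend, had 0 of 10 tested members called by edgeR (2 higher and 1 lower at an unadjusted p below 0.05, 0 and 1 by DESeq2, 0 and 0 by limma-voom). They summed to 340.7 to 363 CPM in the DKO against 354.7 to 383 CPM in the controls, with a median log2 fold change of -0.02. S100b was under the filter, with 8, 12 and 1 counts in the DKO and 5, 1 and 1 in the controls. Fabp7, the most abundant of them, had a log2 fold change of -0.05 (SE 0.12, adjusted p = 0.865 by edgeR). Of 12 neuron markers 0 rose and 1 fell by edgeR, beside 2.19% and 0.818% of all tested genes. The counts were 0 and 4 at an unadjusted p below 0.05, 0 and 2 by DESeq2 and 0 and 1 by limma-voom. Of the 12, 11 had negative log2 fold changes, and the median was -0.34, the lowest of the lists. The fall was in Pou4f1, at 42.6 ± 3.25 against 58.4 ± 3.23 CPM (log2 fold change -0.45, SE 0.09, adjusted p = 0.0306 by edgeR), and the call ended without any 1 library except DKO replicate 3. The most abundant neuron marker, Tubb3, had a log2 fold change of -0.05 (SE 0.11, adjusted p = 0.844 by edgeR).

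Of the endothelial markers, Tie1 rose and no other was called. All 8 were tested and had positive log2 fold changes, with a median of 0.61, where 48.8% of all tested genes were positive. Their summed level was 32.6, 43.3 and 34.8 CPM in the DKO against 27.6, 18.4 and 20.3 CPM in the controls, without overlap. Without Tie1 the other 7 summed to 24.7, 34.3 and 27.6 CPM against 26.5, 17.6 and 19.3 CPM, and DKO replicate 1 lay below control replicate 1. Those 7 included Erg, at 4.49 to 12.4 CPM in the DKO and 4.38 to 9.48 CPM in the controls, with control replicate 1 the highest control. Groups did not overlap for 3 of the 8, all with the DKO higher, where 14.5% of all tested genes separated in that direction. These were Tie1, Pecam1 (6.49 ± 0.929 against 3.71 ± 1.02 CPM) and Emcn (2.79 ± 0.731 against 1.40 ± 0.372 CPM). Of the 8, 1 was called by edgeR, beside 3.01% of all tested genes. At an unadjusted edgeR p below 0.05 the count was 3, and DESeq2 called 2 and limma-voom 1. The receptor gene Tie1 rose, at 8.05 ± 0.889 CPM in the DKO against 0.965 ± 0.146 (log2 fold change 3.04, SE 0.20, adjusted p = 0.000503 by edgeR). The list's most abundant member, Erg, had a log2 fold change of 0.22 (SE 0.48, adjusted p = 0.841 by edgeR). On the blood and mast cell list, which bears on Kit, 7 of 12 were tested. Of these 1 rose and 0 fell by edgeR, beside 2.19% and 0.818% of all tested genes. The counts were 1 and 1 at an unadjusted p below 0.05, 1 and 1 by DESeq2 and 1 and 0 by limma-voom. The stem and endothelial cell gene Cd34 rose, at 44.2 ± 9.13 CPM in the DKO against 10.7 ± 2.39 (log2 fold change 2.03, SE 0.20, adjusted p = 0.00272 by edgeR), and Gata2, the most abundant, had a log2 fold change of -0.17 (SE 0.13, adjusted p = 0.479 by edgeR). Of the 7 tested, 6 had negative log2 fold changes, and the median was -0.20. The globin gene Hbb-bt was lower in every DKO library, at 0.507 ± 0.285 against 2.02 ± 0.756 CPM, and was not called (log2 fold change -1.95, SE 0.47, adjusted p = 0.0684 by edgeR). The list summed to 148 to 177 CPM in the DKO against 126.8 to 169 CPM in the controls, and the mast cell genes Cpa3 and Mcpt4 had 0 counts in all 6. Of the 3 others under the filter, Tpsb2 had 1 count in all. The leukocyte gene Ptprc had 6, 10 and 18 counts in the DKO and 4, 3 and 3 in the controls, without overlap (34 against 10, a ratio of 2.61, counting interval 1.26 to 5.91), and the myeloid factor gene Spi1 had 2, 6 and 16 against 2, 2 and 6. Of the 6 epithelial markers 0 were called by edgeR (0 higher and 1 lower at an unadjusted p below 0.05, 0 by DESeq2 and limma-voom), they summed to 16.4 to 25.5 and 20.1 to 23.3 CPM, and Krt18, the most abundant, had a log2 fold change of -0.03 (SE 0.19, adjusted p = 0.951 by edgeR). Of the 12 arch mesenchyme markers 0 were called (0 and 2 at an unadjusted p below 0.05, 0 by DESeq2 and limma-voom), the median log2 fold change was -0.17, and Prrx1 had -0.31 (SE 0.11, adjusted p = 0.166 by edgeR). The part that other cells, the endothelial ones included, had in the level of Tyr was not tested.

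**Figure D4:**
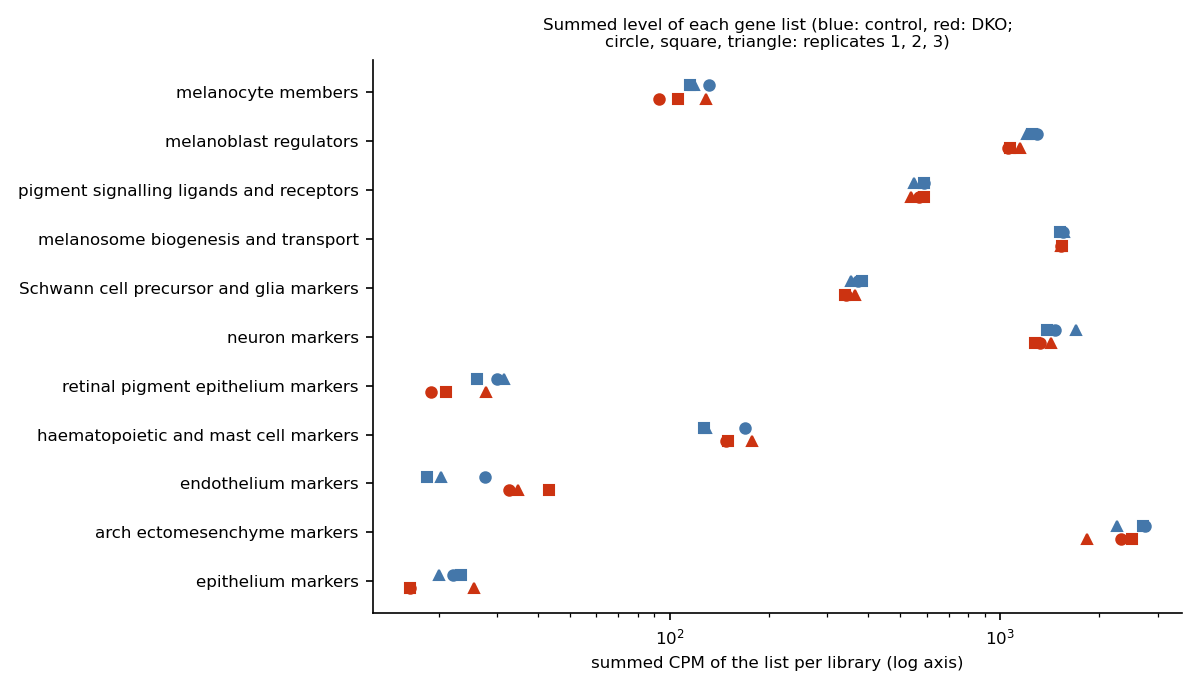
Summed TMM-scaled CPM of each gene list (log axis) in 3 control (blue) and 3 DKO (red) libraries; symbols are replicates 1, 2 and 3. The melanocyte genes span 93.2 to 131.4 CPM with the groups mixed. The endothelial list is higher in every DKO library, but not when Tie1 is left out of the sum. The list of melanoblast regulators, at 1058 to 1151 against 1209 to 1299 CPM, is lower, a level that need not belong to pigment precursors.

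The tested genes closest in pattern to Tyr over the 6 libraries, by Pearson correlation of log2 CPM, were the thrombospondin-domain gene Thsd1 (r = 0.995), the serotonin receptor gene Htr3a (0.995) and the peroxisome gene Pex11a (0.994). They had log2 fold changes of 0.64, 1.99 and 0.45, and none was called. With only 6 libraries, 181 genes had an r above 0.95 with Tyr, so the order among them carries little weight. For Ednrb, the most abundant of the 10 genes, the closest were Tmx4 (0.999), Iqsec1 (0.996) and Pikfyve (0.994), with 27 genes above 0.95.

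The sign of the fold change was kept in all settings tried for 6 of the 7 tested genes, while the call of Tyr was not. Under 13 other settings, which changed the scaling, filter, test, block or left out a library, Tyr kept a positive log2 fold change and was called in 8. Mitf kept a positive sign in all 13 (0.42 to 0.66, adjusted p 0.145 to 0.428), and Dct, Pmel, Kit and Ednrb kept a negative sign in all 13. Slc45a2 changed sign without DKO replicate 3 or control replicate 3.

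**Figure D5:**
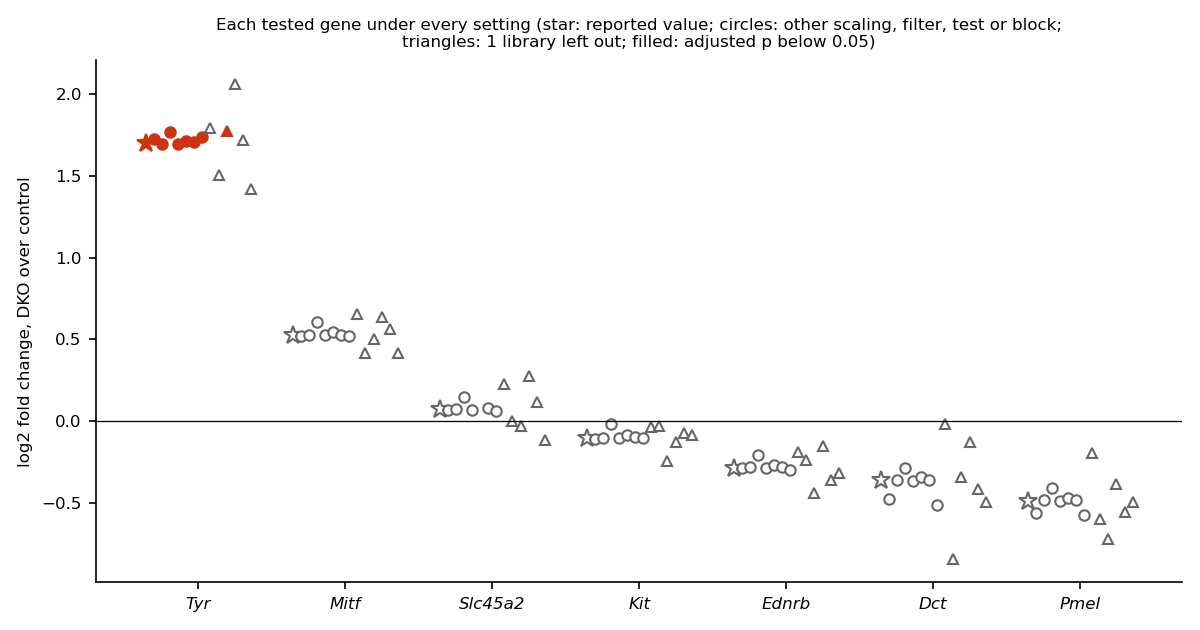
Log2 fold change of DKO over control (vertical axis) of the 7 tested melanocyte genes as reported (star), under 7 other settings of scaling, filter, test or block (circles; 6 for Slc45a2) and with each of 6 libraries left out (triangles); filled symbols have an adjusted p below 0.05. Tyr lies between 1.42 and 2.06 throughout and its open triangles are the fits in which the call ended.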

How the data were processed

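RNA-seq of TdTomato-sorted branchial arch cells was available as 1 deposited table of whole-number read counts per gene symbol, with no normalization by the authors; 3202 of its 21006 symbols had no count in any library. The tools named by the submitters' processing notes are STAR 2.7.10a, Picard and Trim Galore, and the build is mm10; for the counting program, strand setting, annotation and duplicate removal, nothing is stated in the sources at hand. Columns named WT were read as the unfloxed control libraries. Counts were filtered with filterByExpr (minimum count 10, minimum total 15), scaled by TMM and tested with edgeR 4.0.16 in R 4.3.3 (robust quasi-likelihood, 2-sided, group only, Benjamini-Hochberg over all 14555 tested genes). Standard errors are the log2 fold change over the root of F. The test was checked on simulated counts, where it recovered 76 of 100 2-fold and 93 of 100 4-fold changes, with 9 false among 178 calls. At 0.5 to 3 CPM it recovered 1 of 16 2-fold and 12 of 17 4-fold changes. An uncalled gene at that level may therefore still have changed. Alternatives used DESeq2 1.42.0 and limma 3.58.1, among others. Correlations used log2 CPM with a prior count of 2. Symbols, coordinates and promoters are RefSeq's (GRCm38.p6); all 21006 symbols matched.

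The 10 genes, the other gene lists and the tests were chosen with earlier results of these data known. All 10 genes are named. Of each other list, every called gene, the most abundant member and the members under the count filter are named. Also named are Sox10, Tfap2a, Pecam1, Emcn, Hbb-bt, Ece1, Gpnmb and Mreg. The rule allowed up to 3 abundant members and did not ask for those under the filter. The Tyr ratios, the promoter motifs, the members under the filter, Creb1 and Ttr under other settings, the genes near Tyr (Nox4, Grm5, Ctsc, Rab38), the sums without Tie1, Cdk2, Dgka and C1qb were chosen after values were seen. So were Tfap2a, Pecam1, Emcn, Hbb-bt, Ece1, Gpnmb and Mreg.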

Additional observations from a re-analysis of the deposited data

How the results depend on the processing

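Depth limits Tyrp1, Mlana and Oca2, at 3 to 19 counts per group; without the filter their log2 fold changes were 0.30, 0.41 and 0.66 (edgeR adjusted p = 0.918, 0.845 and 0.652). Slc45a2 gave no value with at least 1 CPM in 3 libraries. Causes of the changes below were not tested.

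Over all tested genes, 319 higher and 119 lower became 624 and 482 with DESeq2 and 416 and 80 with library size only; without 1 library they ranged from 110 to 597 and from 21 to 509. Library size only moved the median log2 fold change of all genes from -0.01 to 0.07. Replicate numbers are shared by the groups, and the labels do not say whether they pair the libraries. Deviations of same-numbered libraries correlated at 0.07, -0.01 and 0.36, and DKO replicate 2 correlated best with control replicate 1 (0.44). Correlations of so few libraries cannot settle whether pairing exists. With the replicate block the calls were 423 higher and 196 lower, and Tyr had 1.73 (adjusted p = 0.0153).

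Among the 10 melanocyte genes the higher count ranged from 0 to 1 without 1 library, as Tyr ranged from 1.42 to 2.06. The lists changed as follows. Melanoblast regulators had 1 lower member with the block, with no filter and with DESeq2, and 0 to 1 higher and 0 to 3 lower without 1 library. Signalling genes had 1 lower with DESeq2, and 0 to 2 higher and 0 to 1 lower without 1 library. Melanosome genes had 0 higher with RLE and limma-voom, 2 with library size only, with no filter and with DESeq2, and 1 lower with no filter and 2 with DESeq2; without 1 library they had 0 to 1 higher and 0 to 1 lower. Glial markers had 1 lower with DESeq2 and 0 to 1 without 1 library. Neuron markers had 2 lower with no filter and with DESeq2, and 0 to 4 without 1 library. Retinal pigment epithelium markers had 1 lower with the block and with DESeq2, and 0 to 1 higher and 0 to 1 lower without 1 library. Blood markers had 1 lower with the block and with DESeq2, and 0 to 1 without 1 library. Endothelial markers had 2 higher with DESeq2. Epithelial markers had 0 to 1 lower without 1 library.

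Signs turned for Slc45a2, which ranged from -0.11 to 0.28 without 1 library, and for uncalled genes near 0. With library size only these were Fabp7 (0.030), Tubb3 (0.034) and Krt18 (0.054), with limma-voom Krt18 (0.025) and C1qb (-0.23), and with the block C1qb (-0.066). Without 1 library the ranges were -0.0097 to 0.057 for Ap3d1, -0.15 to 0.064 for Fabp7, -0.26 to 0.011 for Sox10, -0.10 to 0.078 for Tubb3, -0.42 to 0.69 for Erg, -0.18 to 0.094 for Krt18 and -1.25 to 0.81 for C1qb.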
